A study of Danio rerio with 2 samples.

Results

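The regions described here are stretches of the zebrafish genome (Danio rerio, build Zv9) transcribed at a good level in one sorted neural population. The other population had no listed transcript there once short or very high entries were set aside, and 21 regions overlapped such an entry. The regions number 314 of 46045: 207 listed in the 1020 library only and 107 listed in the HuC library only. The deposited files give rows, each a chromosome span with a value in FPKM, the fragments counted per kilobase of a transcript relative to the library's mapped fragments. Rows spanning under 300 bp or above 200000 FPKM were set aside, and the rows kept from both libraries that overlapped by 1 bp or more were merged into regions. The libraries lost unequal numbers of rows. Of 70216 rows in 1020, 7988 were under 300 bp and 5 longer ones were above the FPKM ceiling. Of 49173 rows in HuC, the numbers were 1855 and 0. A region was included when all its rows came from a single library, its merged span was 1000 bp or more and its summed FPKM was 5 or more. These values chose the regions, so presence in one library, level and span are given as a description, with no test.

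Both libraries came from embryos at 20 hours post fertilization, whose tails, cut at somite 3, were treated with trypsin and collagenase. After dissociation the fluorescent cell bodies were sorted, and polyA-selected RNA was sequenced. The 1020 library is from cells marked by the Gal4 driver 1020st and is labelled an olig2+ subpopulation. The HuC library is from cells of a HuC driver, with the population label panneuronal. By these labels the populations may share cells, and the sources used here do not give strain, fluorescent reporter or number of embryos pooled. Each group held 1 library, so replicate error is unknown and p-values are left out. The rows carry no gene names and no Zv9 annotation was used, so regions are given by position, neither population could be checked against its marker genes, and whether a region is exonic, intronic or untranslated was not analysed here. In bulk samples, fewer cells of a type and less RNA per cell cannot be told apart.

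Olig2 is a transcription factor of the ventral spinal cord. Its progenitor domain gives rise to motor neurons and oligodendrocytes and, in zebrafish, to some of the Kolmer-Agduhr neurons that contact the cerebrospinal fluid. HuC (Elavl3) is an RNA-binding protein switched on as cells become postmitotic neurons. A transcript assembler lists a locus where enough overlapping reads can be joined, so a row can stand for a spliced messenger RNA, a long noncoding RNA or a fragment of either, and an absent row need not mean an absent transcript.

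Taking the lowest recurring value of short rows as 10 fragments, which is inferred from the values and stated in no source used here, the FPKM values correspond to 38195710 fragments in the 1020 library against 21878344 for HuC, recovered from the steps between values of short rows. Whether 10 fragments is the authors' minimum for listing a row is not known. On a transcript of 300 bases, 10 fragments equal 2.41 FPKM in 1020 and 4.27 FPKM in HuC, and on one of 1000 bases 0.324 and 0.566 FPKM. These values come from a straight line of inverse fragment value against row span, fitted on spans of 450 to 600 bp. The line has an intercept, so they differ from fragments divided by the full length. Both lengths lie outside the fitted spans, so all numbers of expected fragments at 300 bases are extrapolated.

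Regions past both minimums were nearly all shared. Of 12859 regions of 1000 bp or more with 5 FPKM or more in at least 1 library, 12545 held rows of both libraries. Those listed in 1020 only made up 1.61% and those listed in HuC only 0.832%. Without the minimums on span and level the shares were 37.0% and 13.0% of all 46045 regions. The share fell steeply with level. Among regions of 1000 bp or more whose higher value lay between 1 and 2 FPKM, 34.0% were listed in 1020 only and 15.1% in HuC only. Between 5 and 10 FPKM the shares were 2.86% and 1.59%, and between 10 and 50 FPKM 1.04% and 0.428%. At 50 FPKM or more, 11 of 1831 regions (0.601%) were listed in 1020 only and 8 (0.437%) in HuC only. The decline therefore continued past the minimum of 5 FPKM, and the most abundant class still held regions of both kinds.

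**Figure D1:**
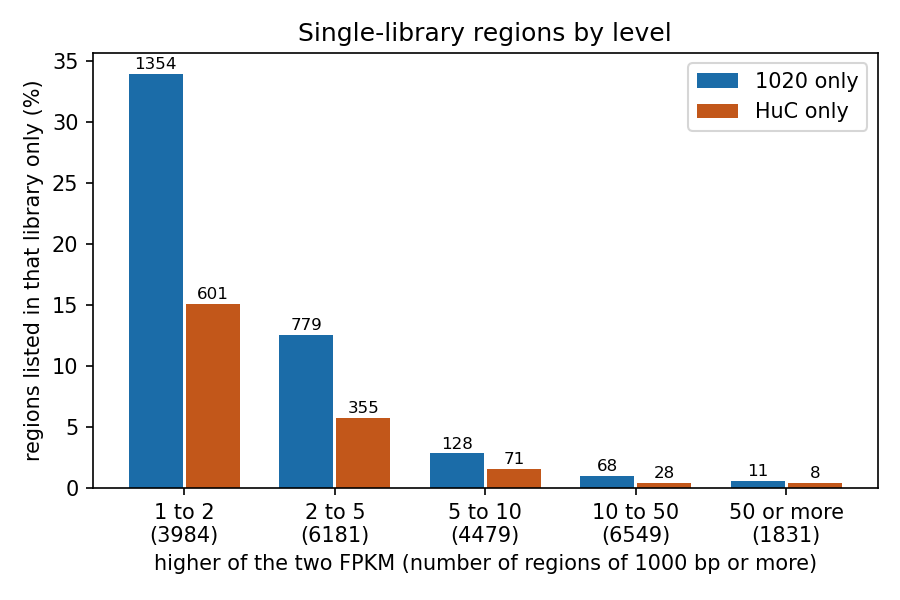
Regions of 1000 bp or more are grouped by the higher of their FPKM values (horizontal axis, number of regions in brackets), and bars give the percent listed in 1020 only (blue) or HuC only (orange), with the number of regions above each bar. The shares fall from 34.0% and 15.1% at 1 to 2 FPKM to 0.601% and 0.437% at 50 FPKM or more.

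The regions listed in 1020 only were 65.9% of the 314 (exact 95% binomial interval 60.4 to 71.2%). The interval takes the regions as independent, although many lay in runs of the same library as given below, and covers counting error only. The rule chose these regions from 1 library per group, so the interval is no test of a difference between the populations. The corresponding share was 74.0% of all 23039 single-library regions and 72.1% of the 4891 single-library regions of 1000 bp or more that stayed under 5 FPKM, but 53.8% of the 480 under 1000 bp at 5 FPKM or more. By the inferred fragment numbers, the 1020 library is 1.75 times deeper than the HuC library. Expected fragments in the other library were reckoned for the highest row of each region, at the same FPKM and on an assumed transcript of 300 bases; this reckoning was added after the data had been seen. For the regions listed in 1020 only they had a median of 16.0 and a lowest value of 3.24 in HuC. For those listed in HuC only the median was 27.2 and the lowest value 8.54 in 1020. At 10 expected fragments or more were 167 of the 207 and 104 of the 107. The 40 and 3 others all had several rows. The rule fixes this, since 1 row at 5 FPKM exceeds 10 fragments at 300 bases in either library. At 20 or more were 78 in 1020 only and 89 in HuC only, and the 1020 share among these was 46.7%. With the summed FPKM in place of the highest row, 97 and 107 regions had 20 or more, a 1020 share of 47.5%. From the summed FPKM this requirement removed no HuC-only region, whose lowest value was 20.8 expected fragments, so it cut the sets unequally. With an equal minimum of 10 FPKM for both sets, 79 and 36 regions remained, a 1020 share of 68.7%. The excess of 1020 over HuC regions thus did not hold where 20 expected fragments were required, but held at the equal FPKM minimum. With rows joined across gaps of up to 1000 bp, 312 regions were listed in 1020 only and 117 in HuC only. Fragments lack molecular identifiers, so such numbers cover counting error only.

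Levels and spans were spread widely in both sets. Summed FPKM in the 1020-only set ran from 5.001 to 376, with a median of 8.11 and quartiles of 5.99 and 14.6. In the HuC-only set it ran from 5.01 to 272, with a median of 6.91 and quartiles of 5.77 and 12.8. For comparison, the shared regions of 1000 bp or more with 5 FPKM or more in at least 1 library had medians of 11.1 FPKM in 1020 and 11.2 FPKM in HuC. These medians can include values under 5 FPKM, unlike those of the single-library sets. Most of the single-library regions therefore lay close to the minimum, with a long upper tail. Merged spans had a median of 4893 bp in the 1020-only set and 3841 bp in the HuC-only set, against 16868 bp in the shared regions. Each single-library set was a small part of the summed FPKM of its library's kept rows: 0.771% in 1020 and 0.390% in HuC. Rows set aside are not in these totals, among them 5 rows of 1020 above 200000 FPKM.

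**Figure D2:**
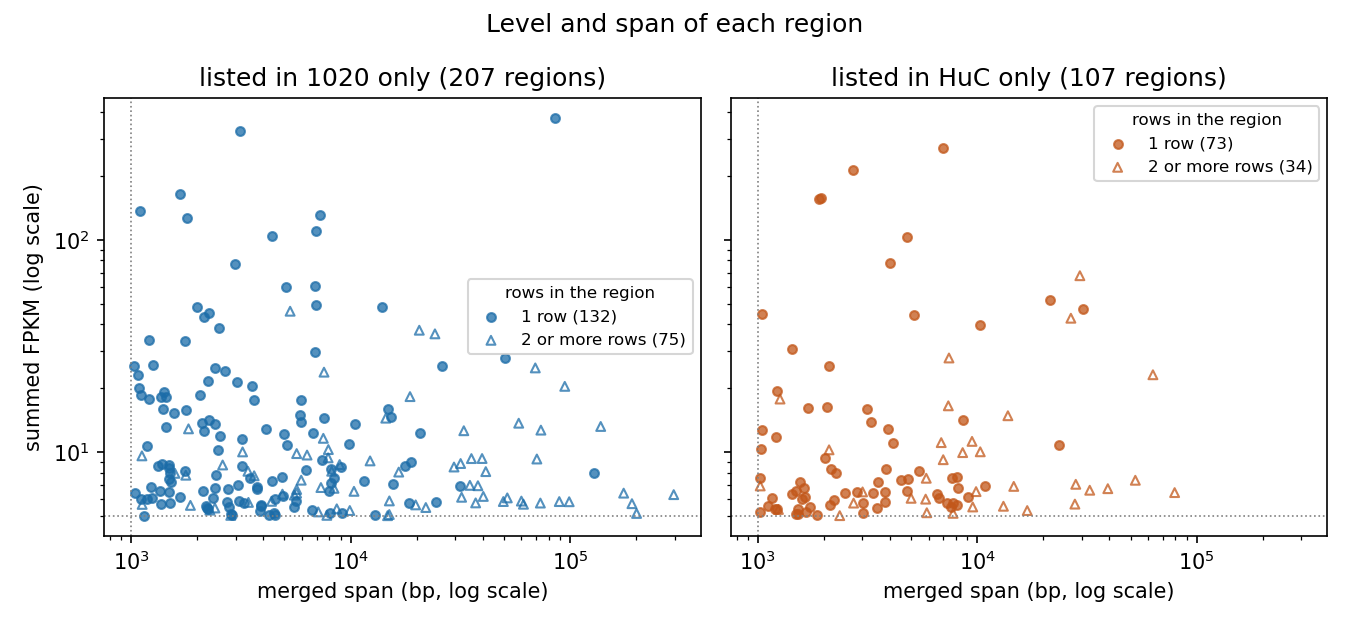
Each point is 1 region, with its merged span in bp (horizontal, log scale) against its summed FPKM in the library that lists it (vertical, log scale); filled circles have 1 row, open triangles several, and dotted lines mark the minimums of 1000 bp and 5 FPKM. The 1020-only regions reach 297057 bp and the HuC-only regions 79398 bp, and the highest points of both sets have 1 row.

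The most abundant region listed in 1020 only lay on chromosome 17 from 27782644 to 27867863, a span of 85220 bp with 1 row at 376 FPKM. It ranked 135 by FPKM among the 40054 regions with a row in the 1020 library. The nearest HuC row lay 16988 bp to its left and the next 69969 bp to its right, so the kept HuC rows left a gap of 172177 bp. The nearest shared region, on its left, had 23.0 FPKM in 1020 and 10.3 FPKM in HuC. At 376 FPKM a transcript of only 300 bases would have had 881 expected fragments in the HuC library.

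Next came the unplaced sequence Zv9_NA15 from 18620 to 21746, at 327 FPKM and 985 bp from a shared region with 7.78 FPKM in 1020 and 14.2 FPKM in HuC. Chromosome 17 also held the third, from 12013728 to 12015394, at 164 FPKM and 12627 bp from the nearest HuC row. Chromosome 12 from 325528 to 326620 had 136 FPKM in a gap of the HuC rows of only 3975 bp. These 4 regions ranked between 135 and 453 in the 1020 library, with no row in the other. Some stood close to a HuC row and others far from one.

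Chromosome 23 from 36350304 to 36357523 had 131 FPKM and stood 2071 bp from one of the very abundant shared regions, with 1499 FPKM in 1020 and 2349 FPKM in HuC. The unplaced Zv9_scaffold3480 from 241903 to 243696 had 127 FPKM and ended a run of 4 consecutive regions listed in 1020 only. Chromosome 5 from 2366374 to 2373304 had 111 FPKM, although its nearest shared region was lower in 1020 (0.476 FPKM) than in HuC (4.84 FPKM). A level above 100 FPKM in 1020 thus occurred beside shared regions that were higher in either library.

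Chromosome 8 from 25247426 to 25251792, at 105 FPKM, lay in a stretch of 8 consecutive 1020-only regions, and the gap in kept HuC rows around it measured 369866 bp. Chromosome 24 from 14655336 to 14658303 had 77.2 FPKM and stood 25766 bp from the nearest HuC row. The most isolated of these regions was on chromosome 17 from 47170560 to 47177437, at 60.8 FPKM. Its nearest HuC rows lay 491578 bp to the left and 509887 bp to the right, and it belonged to a run of 10 consecutive 1020-only regions, the longest run around any region of the set. Over this stretch the 1020 library had a series of loci and the HuC library no kept row.

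The remaining pair by the same ranking lay on chromosome 6 from 45128572 to 45133631, at 59.7 FPKM, and on chromosome 3 from 50838997 to 50845948, at 49.5 FPKM. The first was 3901 bp from a shared region with 37.9 FPKM in 1020 and 87.2 FPKM in HuC. The second was 39103 bp from a shared region at nearly equal level, 19.0 and 17.6 FPKM.

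Among the regions listed in HuC only, the highest lay on chromosome 15 from 7302621 to 7309622, at 272 FPKM and rank 234 among the 28997 regions with a row in the HuC library. The nearest 1020 row stood 25187 bp away, and the 1020 library had a gap of 116070 bp there. At this level a transcript of 300 bases would have had 1127 expected fragments in the 1020 library. Its nearest shared region was low in both libraries, at 3.92 FPKM in 1020 and 1.15 FPKM in HuC.

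Chromosome 19 from 3727546 to 3730274 followed at 213 FPKM, 1215 bp from a shared region with 17.2 FPKM in 1020 and 38.1 FPKM in HuC. The unplaced sequence Zv9_NA408 held 157 FPKM from 6636 to 8574, as the only region on that sequence. Chromosome 2 from 23354485 to 23356392 had 156 FPKM, between 1020 rows 27097 bp and 35489 bp away. These regions held ranks 307, 429 and 433 in the HuC library, far above the bulk of the set.

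The next pair lay on chromosome 4. From 60624736 to 60629542 the HuC value was 103 FPKM, with the nearest 1020 row 72774 bp away, and from 36289553 to 36293567 it was 77.8 FPKM, with the nearest 1020 row 9441 bp away. Chromosome 5 from 9128819 to 9158194 had 67.8 FPKM in 2 rows, the higher at 54.1 FPKM. This region also overlapped a 1020 row of 271 bp at 4.21 FPKM that the span minimum had set aside, so it was not empty of 1020 signal. Zv9_NA493 from 18986 to 40388 had 51.8 FPKM, and the shared region 9113 bp from it was 5.63 FPKM in 1020 and 46.9 FPKM in HuC.

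The last 4 of the 12 highest HuC-only regions all had a 1020 row close by. On chromosome 20 from 52833742 to 52864244 the HuC value was 47.2 FPKM, and a 1020-only region at 1.58 FPKM ended 40 bp before it. On Zv9_NA501 from 69685 to 70727 it was 44.8 FPKM, with a 1020 row at 1593 bp. On chromosome 19 from 32830745 to 32835885 it was 44.0 FPKM, with shared regions 949 bp and 1041 bp away. On chromosome 23 from 18009981 to 18036708 it was 42.7 FPKM in 2 rows, 36 bp from a shared region at 836 FPKM in 1020 and 1367 FPKM in HuC. Whether these regions are transcripts separate from their neighbours was not tested.

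The longest 1020-only regions were weak and made of several rows. Chromosome 24 from 41753776 to 42050832 spanned 297057 bp with 4 rows summing to 6.29 FPKM, the highest of them at 2.52 FPKM. Chromosome 18 from 26419070 to 26620252 spanned 201183 bp with 3 rows summing to 5.13 FPKM, and chromosome 19 from 8766941 to 8958566 spanned 191626 bp with 3 rows summing to 5.70 FPKM. In each of these the minimum of 5 FPKM was passed by the sum and by no single row. The longest HuC-only regions were on chromosome 12 from 33880084 to 33959481 (79398 bp, 6.43 FPKM in 2 rows), chromosome 15 from 5722959 to 5786186 (63228 bp, 23.1 FPKM in 4 rows) and chromosome 18 from 12227879 to 12280436 (52558 bp, 7.35 FPKM in 2 rows). The chromosome 15 region overlapped a 1020 row of 220 bp at 18.3 FPKM that the span minimum had set aside. A span of 100000 bp or more occurred in 6 regions of the 1020-only set and in none of the HuC-only set. Of all 1075 regions of that span past the FPKM minimum, those are 0.558% and 0. With regions taken as independent, a count of 0 allows up to 0.279%.

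The share listed in a single library was higher for short spans than for long ones. Regions of 1000 to 3000 bp at 5 FPKM or more were 1020-only in 4.60% and HuC-only in 2.64% of 1630 cases. The shares were 2.51% and 1.51% of 2987 regions of 3000 to 10000 bp, and 0.712% and 0.265% of 7167 regions of 10000 to 100000 bp. Span is part of the rule and of the merging, so nothing is read from this order.

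The values at the edge of the rule were continuous. Just inside it in 1020 were chromosome 4 from 42729469 to 42730608 at 5.001 FPKM and chromosome 11 from 27469125 to 27483873 at 5.006 FPKM. The chromosome 4 region overlapped a HuC row of 172 bp at 128 FPKM that the span minimum had set aside. Just inside the rule in HuC were chromosome 9 from 1922350 to 1924712 at 5.008 FPKM and chromosome 14 from 32621234 to 32623090 at 5.06 FPKM. Just outside were chromosome 7 from 65359945 to 65375053 at 4.998 FPKM and chromosome 18 from 37511428 to 37542060 at 4.99 FPKM in 1020. In HuC they were chromosome 12 from 5477225 to 5484368 at 4.99 FPKM and chromosome 16 from 11228902 to 11249246 at 4.97 FPKM.

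Most single-library regions were listed as a single row. One row stood for 132 of the 207 regions in 1020 only (63.8%) and 73 of the 107 in HuC only (68.2%), against 43.1% of shared regions in either library. Within classes of span the difference was smaller, but it remained under 10000 bp. In a shared region, a row of the other library can join rows of 1 library that would otherwise stand apart. Level was not matched either, so no trait of the sets is read from this difference. Among regions of 10000 bp or more, 1 row stood for 29.8% of 57 1020-only regions and 30.6% of shared ones in the 1020 library, and for 26.3% of 19 HuC-only regions and 31.8% of shared ones in the HuC library. Among regions of 3000 to 10000 bp the values were 66.7% against 59.6% in 1020 and 68.9% against 60.2% in HuC. Among regions of 1000 to 3000 bp the values were 86.7% against 79.6% in 1020 and 86.0% against 71.6% in HuC. Several overlapping rows in one place are what an assembler writes for alternative isoforms or for a locus in pieces. Of 75 regions with several rows in 1020, 37 had rows with a common start or end and 10 repeated an identical span. Of 34 in HuC, the numbers were 19 and 3. The same counts among shared regions with several rows are not given here, so no trait of the sets is read from them.

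The regions with most rows were in the 1020 set, where 18 of 207 had 5 or more rows against 1 of 107 in the HuC set. The 1020 library also had more kept rows, 62223 against 47318. Its set held more regions of 10000 bp or more, 57 against 19. The share of shared regions with 5 or more rows is not given here, so no trait of the set is read from these counts. The regions below were named after their values were seen. Chromosome 6 from 16424629 to 16562694 had 12 rows summing to 13.2 FPKM, the highest at 3.54 FPKM. Chromosome 12 from 34489483 to 34584173 had 8 rows summing to 20.4 FPKM, the highest at 5.01 FPKM, and overlapped a HuC row of 217 bp set aside by the span minimum. Chromosome 22 from 33085180 to 33143579 had 8 rows summing to 13.7 FPKM, and chromosome 19 from 10155759 to 10226409 had 8 rows summing to 9.26 FPKM. In the HuC set the single case was chromosome 7 from 1425719 to 1435601, with 5 rows summing to 6.501 FPKM. Since the sum counts each row in full, 156 regions of the 1020 set and 89 of the HuC set reached 5 FPKM in their highest row. Introns are not marked in the files, so the transcribed length of a region is not known and no fragment number is given for its own library.

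The sets were spread over the chromosomes unevenly. Chromosome 17 had 17 regions in 1020 only of 476 past the minimums (3.57%) and none in HuC only. With regions taken as independent, a count of 0 there allows up to 0.630%. The 17 regions of chromosome 17 ran from 580056 to 53973396 and ranged from 5.02 to 376 FPKM, so they were not one cluster. Chromosome 11 likewise had none in HuC only, beside 4 in 1020 only. HuC-only regions were the more numerous on chromosomes 8 (4 against 3), 14 (5 against 4), 16 (10 against 8) and 19 (7 against 6). The highest share was on unplaced sequences, at 16 of 316 in 1020 only (5.06%) and 6 in HuC only (1.90%). On 6 of these for 1020 and 3 for HuC, the other library had no row anywhere on the sequence. Among placed chromosomes the 1020-only share was next highest on chromosome 24 (11 of 395, 2.78%), chromosome 4 (12 of 456, 2.63%) and chromosome 13 (13 of 503, 2.58%), and lowest on chromosome 8 (3 of 534, 0.562%). With about 8 regions of the 1020 set and 4 of the HuC set per group of sequences, single numbers carry a large counting error, and no test was made.

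**Figure D3:**
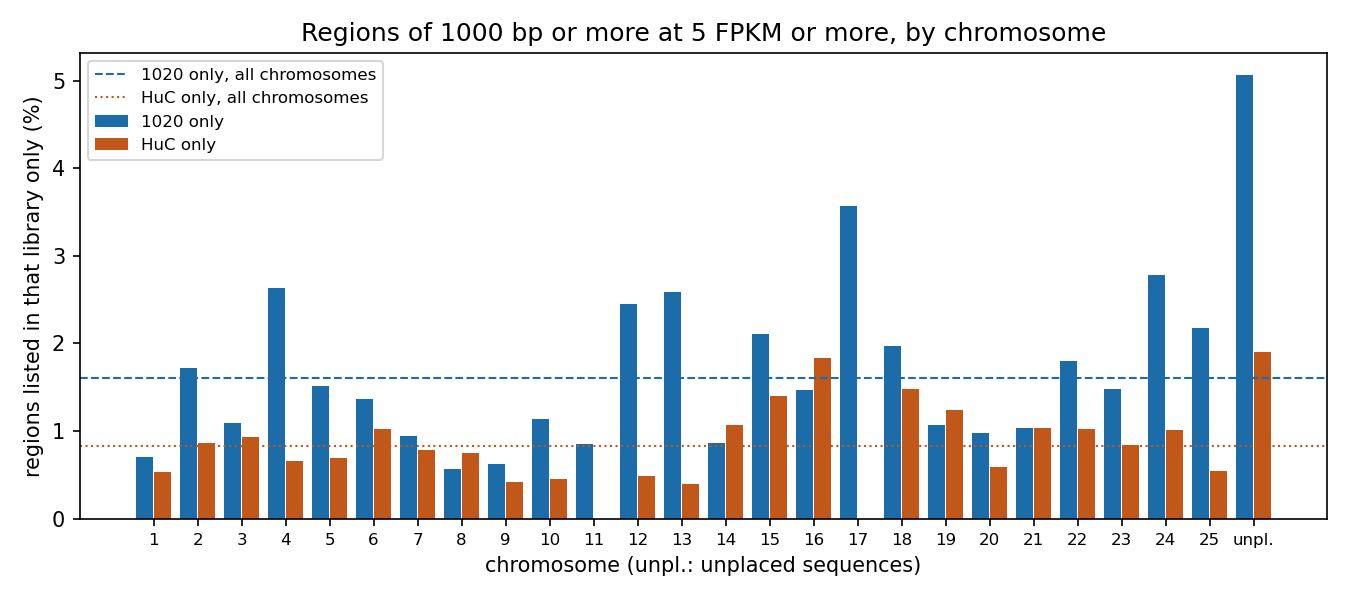
Bars give, for each chromosome and for the unplaced sequences (unpl.), the percent of regions of 1000 bp or more at 5 FPKM or more that were listed in 1020 only (blue) or in HuC only (orange), and horizontal lines give the shares over all sequences, 1.61% and 0.832%. Unplaced sequences reach 5.06% and 1.90%, and chromosome 17 reaches 3.57% in 1020 with no HuC-only region.

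The long arm of zebrafish chromosome 4 is known for repeats, zinc finger gene arrays and late replication. The 12 regions of chromosome 4 listed in 1020 only began between 797476 and 59620700, and 9 of them began at 28564759 or beyond. How many of the 456 regions of this chromosome past both minimums began there is not given here. No excess on the long arm is therefore read from this count. They included 43.4 FPKM from 57686455 to 57688606, 33.7 FPKM from 29070763 to 29071964 and 33.3 FPKM from 45367643 to 45369397. The first of these lay 51 bp from a shared region. Of the 3 HuC-only regions of the chromosome, those at 103 and 77.8 FPKM described above were in the same part and the third began at 681278.

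A region's surroundings were not used in choosing it, apart from overlap. The nearest row of the other library lay at a median of 5904 bp from the 1020-only regions (quartiles 1787 and 18630 bp, n = 201 with a row on the same sequence) and 2707 bp from the HuC-only regions (quartiles 711 and 8908 bp, n = 104). Shared regions past the same minimums lay at a median of 1836 bp from the next HuC row and 1308 bp from the next 1020 row. Within 1000 bp of a row of the other library were 14.9% of the 1020-only and 28.8% of the HuC-only regions, against 36.6% and 44.1% of the shared ones. More than 10000 bp away were 36.3% and 20.2%, against 16.7% and 10.5%. The medians of both sets thus lay above those of shared regions, in rows of either library. The 1020 library has more rows, 62223 against 47318. The comparison is not an even one, since the rule picked regions that no kept row of the other library overlapped. The shared regions were also longer and were not matched on span or level. Measured to the nearest shared region the medians were 6057 and 2758 bp, and 8372 and 7950 bp with rows joined across gaps of up to 1000 bp, which removes the shortest distances.

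**Figure D4:**
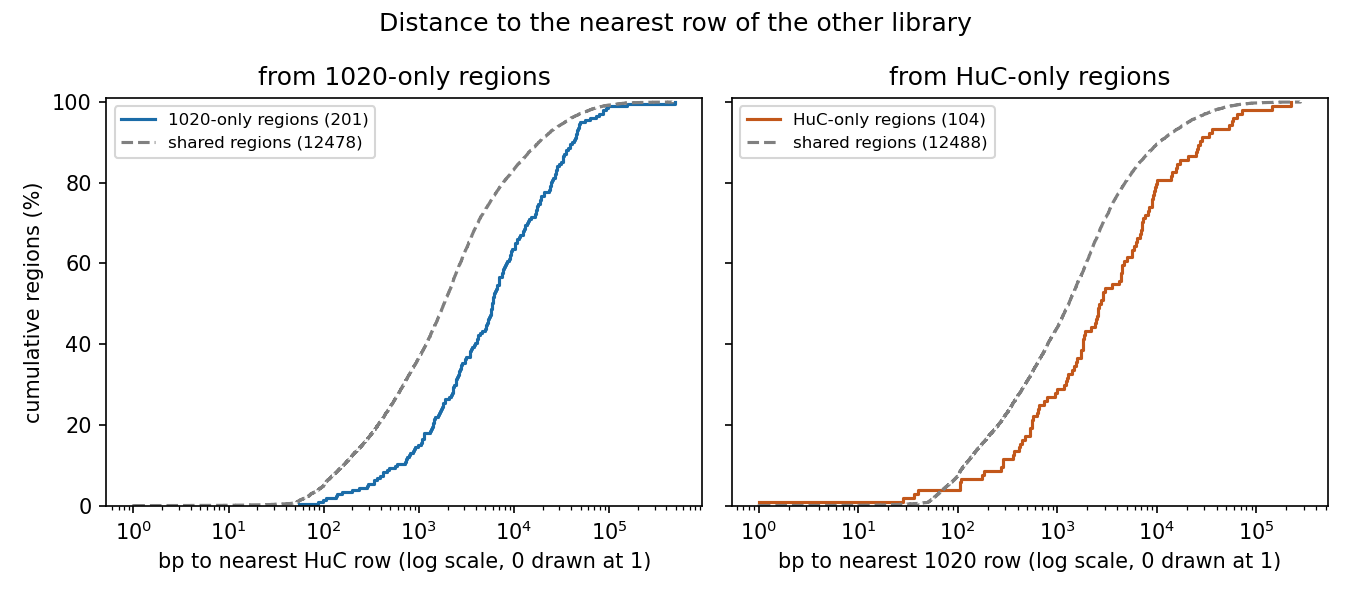
Cumulative percent of regions (vertical) by distance in bp to the nearest row of the other library (horizontal, log scale), for the single-library regions (solid) and for the shared regions past the same minimums (dashed); left, distance to HuC rows, right, distance to 1020 rows. The solid curves lie to the right of the dashed ones over most of the range, with medians of 5904 against 1836 bp on the left and 2707 against 1308 bp on the right.

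Shares of shared regions within 100 bp or beyond 100000 bp are not given here, so nothing is read from the counts below. Within 100 bp of a row of the other library were 3 of the 1020-only and 4 of the HuC-only regions, named here after their values were seen. In 1020 they were Zv9_NA832 from 8702 to 10137 (18.2 FPKM), chromosome 17 from 53814596 to 53816093 (5.76 FPKM) and the chromosome 4 region at 43.4 FPKM. In HuC they were chromosome 10 from 46572522 to 46573561 (12.7 FPKM), which directly abutted a shared region, chromosome 23 from 22722746 to 22723766 (7.50 FPKM), and the regions on chromosomes 20 and 23 described above. At the other end, more than 100000 bp from any row of the other library were 2 of each set. In 1020 these were the region on chromosome 17 at 60.8 FPKM and chromosome 17 from 32155401 to 32215461 at 5.87 FPKM, and in HuC chromosome 16 from 48266600 to 48273318 at 6.08 FPKM and chromosome 18 from 31954340 to 31958180 at 8.31 FPKM.

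A locus listed at one place in 1020 and at a neighbouring place in HuC could show as a pair of single-library regions side by side. It could also show as a single-library region beside a shared one. A region of the opposite single-library kind lay within 1000 bp of 3 of the 1020-only and 4 of the HuC-only regions. None of these neighbours passed the minimums itself. Their median levels were 1.62 FPKM in HuC and 1.58 FPKM in 1020. The most abundant region among these was that on chromosome 20, at 47.2 FPKM in HuC beside 1.58 FPKM in 1020. Within 1000 bp of a shared region lay 36 of the 201 1020-only and 36 of the 103 HuC-only regions with a shared region on their sequence. The counts of 3, 4 and 36 have no share among other regions beside them. Whether neighbouring regions come from the same locus was not tested.

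Adjacent regions were more often of the same kind than around shared regions. The comparison is not an even one. Where the other library has no row, neighbouring rows of 1 library are not joined into a shared region. The shared regions were also longer and were not matched on span or level. How much of the difference the merging sets was not tested. Of 397 regions adjacent to a 1020-only region, 178 (44.8%) were also listed in 1020 only, against 29.1% of 24847 around shared regions. Of 206 adjacent to a HuC-only region, 48 (23.3%) were also listed in HuC only, against 11.1%. The opposite kind was not raised: 11.1% HuC-only around 1020-only regions, and 20.4% 1020-only around HuC-only regions. The same-kind neighbours were mostly weak and short, with a median of 1.36 FPKM and 758 bp in 1020 and 2.39 FPKM and 722 bp in HuC. They lay at a median of 5147 bp in 1020 and 1932 bp in HuC, and 49 and 20 of them were within 1000 bp. This was a property of single-library regions in general: runs of 2 or more consecutive regions of the same library held 68.1% of the 1020-only set and 68.4% of all regions listed in 1020 only, and 37.4% and 36.4% in HuC.

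**Figure D5:**
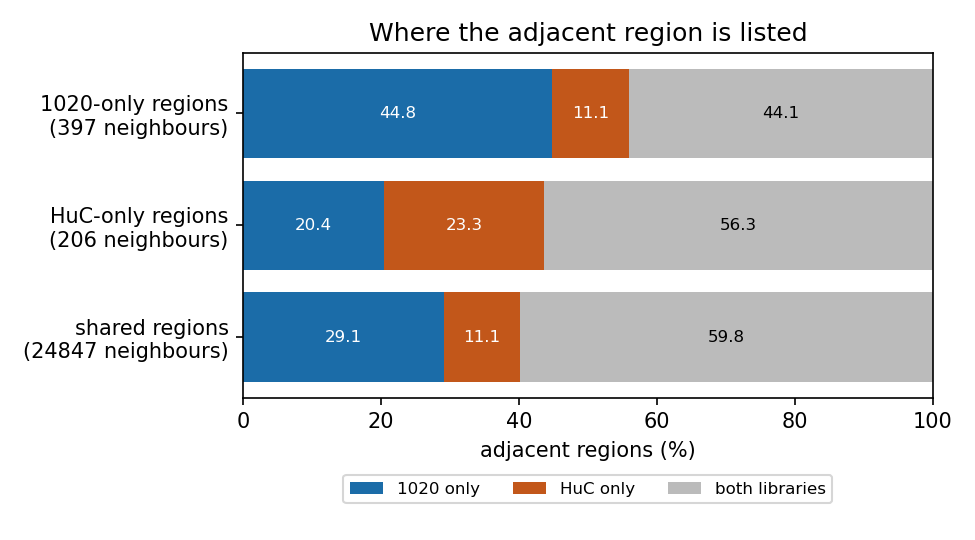
Horizontal bars give the percent of directly adjacent regions that were listed in 1020 only (blue), HuC only (orange) or both libraries (grey), around the 1020-only, the HuC-only and the shared regions of 1000 bp or more at 5 FPKM or more. Same-kind neighbours make up 44.8% and 23.3% in the upper bars, against 29.1% and 11.1% around shared regions.

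Groups of well-expressed single-library regions were small. The single chain of 3 with gaps of at most 100 kb lay on chromosome 15 from 38775082 to 38907780 in the 1020 library, with regions at 6.65, 6.11 and 8.82 FPKM. Of 8 regions in this stretch 7 were listed in 1020 only, 1 was shared and none was listed in HuC only. Another 7 pairs occurred in 1020 and 4 in HuC. The pair on chromosome 5 from 33900116 to 33946206 had 25.4 and 8.48 FPKM, and the pair on chromosome 13 from 52837520 to 52848454 had 6.74 and 15.0 FPKM. In HuC, the pair on chromosome 15 from 45650593 to 45721731 had 39.8 and 11.1 FPKM, and the pair on chromosome 18 from 35543493 to 35547364 had 7.97 and 5.12 FPKM. Between the members of the chromosome 5, 13 and 18 pairs no other region was listed.

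The shared regions flanking the sets differed little in their balance between the libraries. Flanking shared regions were used when they had 1 FPKM or more in at least 1 library. For each single-library region, the log2 ratio of (FPKM + 1), 1020 over HuC, was averaged over the nearest such region on each side within 100 kb. Its median was 0.11 around 194 1020-only regions (quartiles -0.28 and 0.58) and -0.07 around 97 HuC-only regions (quartiles -0.47 and 0.26). Around 12283 shared regions past the same minimums it was -0.03 (quartiles -0.41 and 0.35). It was above 0 at 59.3% of the 1020-only, 44.3% of the HuC-only and 48.1% of the shared regions. The middle ranges of the sets overlapped for the most part. The nearest shared region of any level lay within 1000 bp of 36 regions of each set. Its median log2 ratio was -0.16 beside 1020-only regions, with 15 above 0, and -0.12 beside HuC-only regions, with 16 above 0. On this (FPKM + 1) scale, which understates the change of low regions, some of these shared regions were at least 2-fold apart. Beside the 1020-only set 4 were higher in 1020 and none in HuC, and beside the HuC-only set 6 and 8. The same share among all shared regions is not given here, so nothing is read from these counts. None of these differences was tested.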

How the data were processed

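RNA-seq of 1 library per sorted population was analysed. The authors deposited FPKM values per locus row, per the file headers. TopHat 1.4.0, Cufflinks 2.1.1, Cuffdiff and build Zv9 are named in the submitters' processing notes, without roles; annotation and filters are unstated there. Starts count from 0 in the files, and 1 was added to those printed. Regions were built with Python 3.11.15, pandas 2.3.3, numpy 2.4.6 and scipy 1.17.1, after a check on simulated rows. The value of 1 fragment was read from rows of 300 to 600 bp, whose lowest recurring FPKM was set to 10 fragments. A straight line was fitted to its inverse against span, on spans of 450 bp or more. For other lengths, 300 bases included, the line was carried outside the fitted spans. Only spans with at least 60% of rows whole to within 0.01 were used, and in these 85.3% and 84.3% of rows were whole. That selection keeps both percentages at 60 or above, so they are no check of the fragment value. The 12 highest regions and the 3 longest per library, 2 on either side of the FPKM minimum and chains of 3 or more within 100 kb were named. Members, rules and lists were chosen with earlier results of these data known. Gene lists were not analysed, since rows carry no names.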

Additional observations from a re-analysis of the deposited data

Results flagged for a closer look

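Rows set aside by the span minimum hold signal that the definition of the regions does not use. Of the regions listed in 1020 only, 9 overlapped such a HuC row, of 172 to 279 bp and 7.40 to 129 FPKM. Of those listed in HuC only, 12 overlapped such a 1020 row, of 131 to 298 bp and 4.21 to 3742 FPKM. FPKM at spans this short are inflated, so they were not compared with the regions' own values. The highest was a 1020 row of 137 bp in the HuC-only region on chromosome 16 from 19894814 to 19896301, which had 6.53 FPKM in HuC. For these 21 regions the other library was not without signal. The share of other regions that overlap a row set aside is not given here, so the counts of 9 and 12 are description only.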

How the results depend on the processing

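The number of 1020-only regions (207) stayed within 1.5 times under 10 of 15 alternatives and that of HuC-only regions (107) under 12 of 15. With a minimum of 2 FPKM they were 986 and 462, and with 10 FPKM 79 and 36, by construction of the minimum. With rows joined across gaps of 1000 bp the 1020 number was 312, with 20 expected fragments required it was 97 from the summed FPKM and 78 from the highest row, and with a span minimum of 500 bp the HuC number was 164. The 1020 share (65.9%) stayed in its interval under 11 of 15 alternatives, and was 72.8% without a span minimum for rows, 72.7% with joining across 1000 bp and 47.5% and 46.7% with 20 expected fragments. From the summed FPKM, all 107 HuC-only regions met that last requirement. With a minimum of 10 FPKM the share was 68.7%. The reckonings from the highest row were chosen after seeing the data. The median distance to the nearest shared region (6057 bp for 1020-only and 2758 bp for HuC-only regions) was 8372 and 7950 bp with joining across 1000 bp, which removes shorter distances by construction. The cause of the other changes was not tested. For 1020-only regions with fewer than 20 expected fragments, the part of depth was not tested. No paired analysis was possible because there is 1 library per group, which also leaves nothing to omit in turn.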
